A study of Mus musculus with 10 samples.

Results

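The subject here is the group of 10 MAP3 kinase genes whose products act upstream of the JUN N-terminal kinases (JNK): Map3k1, Map3k2, Map3k4, Map3k5, Map3k7, Map3k9, Map3k10, Map3k11, Map3k12 and Map3k13. They were taken by name from the 19938 genes that the arrays measured with a probe set of 1 gene symbol, and all 10 were found. Where a gene had several such probe sets, the one with the highest mean over the 10 arrays stood for it, which mattered only for Map3k12. The cells were terminally differentiated mouse neurons of strain 129Sv-C57Bl/6, and each sample was total RNA on 1 Affymetrix whole-transcript array. Of the 2 groups, 5 samples received SP600125, a small molecule that competes with ATP for JNK, at 25 µM in 3 applications 2 hours apart, and 5 received the solvent DMSO on the same schedule. Each group has its replicates a and b in drug batch 1, and its other 3 replicates (c, d, e) in drug batch 2. A batch here means a lot of SP600125. The labels call the replicates biological but do not say that each came from a separate culture or how the neurons were obtained, so the p-values reflect only how much these samples varied, and that variation may be technical.

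A MAP3 kinase is the first of 3 kinases that act in a chain. It phosphorylates a MAP2 kinase, MKK4 (Map2k4) or MKK7 (Map2k7) in the JNK branch, which phosphorylates JNK, and JNK then phosphorylates c-Jun and cytoskeletal proteins. The members differ in what switches them on: the MEK kinases (Map3k1, Map3k2, Map3k4) answer growth factor, cytoskeletal and stress signals, ASK1 (Map3k5) answers oxidative stress, TAK1 (Map3k7) answers cytokines and TGF-beta, and the mixed lineage kinases (Map3k9, Map3k10, Map3k11) answer the GTPases Rac and Cdc42. In neurons the best known members are the dual leucine zipper kinases DLK (Map3k12) and LZK (Map3k13), which signal axon injury and loss of trophic support. An array reads the amount of transcript and says nothing of the activity of these kinases.

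Most of the 10 transcripts were lower after SP600125. In a limma fit that allowed for drug batch, 9 of the 10 fell at an adjusted p under 0.05 (Benjamini-Hochberg over all 19938 genes), none rose, and Map3k11 did not pass. Changes are given as log2 SP600125 minus log2 DMSO, with the moderated SE of limma and n = 5 per group. They ran from −0.51 for Map3k4 to −0.05 for Map3k11, with a median of −0.30, against a median of −0.03 over all genes. All 10 values lay below 0, as did 53.9% of all genes, but after cyclic loess normalization Map3k7 and Map3k11 lay slightly above 0.

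The count has to be read against a broad difference between the groups. Of all genes, 29.9% fell and 17.0% rose, 46.9% in either direction. All 10 MAP3 kinases had a mean level above the 95th percentile of olfactory receptor genes (5.43 on the log2 scale), genes that neurons of this kind are not known to use. When the fit was run on only the 12025 genes above that level, 50.4% fell, 8.57% rose and the median change was −0.16. Of these genes 76.5% had a change below 0, and the same 9 of 10 MAP3 kinases fell. The arrays of the groups also differed in spread. The SD over all genes on an array was 1.76 to 1.84 after DMSO and 1.63 to 1.71 after SP600125. The median of the olfactory receptor genes was 3.59 to 3.76 after DMSO and 3.86 to 3.96 after SP600125. Values on the treated arrays thus lay closer together, and these dim genes read higher. The part of this narrower spread in the changes of the MAP3 kinases was not tested. Rescaling of the arrays shortened the list. After quantile normalization 5 of the 10 fell (22.5% of all genes), and after cyclic loess 5 of the 10 fell (17.7% of all genes). In both cases these were Map3k2, Map3k4, Map3k5, Map3k10 and Map3k13.

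The cells carried neuronal transcripts, and these moved too. Some single markers of other cell types were also bright. After DMSO, Col1a1 (fibroblast) averaged 10.87 and Slc1a3 (astrocyte) 10.01, each the brightest of its list. The 12 neuron markers ran from 6.95 (Elavl4) to 11.44 (Gap43), with Tubb3 at 9.87. Levels of different probe sets do not rank the abundance of transcripts. Other markers of these cell types, such as Pecam1 (endothelial) and S100b (astrocyte), lay at or below the olfactory receptor percentile. The share of other cells in the samples was not tested. None of the 12 neuron markers was at or below the olfactory receptor percentile, and 11 of them fell, all but Map2 (median of the list −0.55). Of all genes 29.9% fell, and of the genes above that percentile, fitted alone, 50.4% fell. After cyclic loess 9 of the 12 neuron markers fell, against 17.7% of all genes. Their mean level per array ran from 8.86 to 9.23 after DMSO and from 8.49 to 9.08 after SP600125. Of 7 astrocyte markers 1 rose and 3 fell (array means 8.03 to 8.13 after DMSO and 7.97 to 8.05 after SP600125), and of 7 fibroblast and endothelial markers 3 fell (7.93 to 8.06 and 7.74 to 7.87). Of 6 oligodendrocyte lineage markers 3 fell (7.42 to 7.49 and 7.24 to 7.35), and of 5 neural progenitor markers 2 fell (8.55 to 8.58 and 8.24 to 8.33). Of 5 microglia markers 4 rose (4.45 to 4.67 and 4.69 to 4.93), but 4 of the 5 lay at or below the olfactory receptor percentile, as did all 3 pluripotency markers. Beside these counts, 29.9% of all genes fell and 17.0% rose, and the counts of the other cell types moved with scaling. After cyclic loess 2 astrocyte markers rose (Aqp4 and Gja1) and 1 fell (Gfap), 1 oligodendrocyte lineage marker fell (Mbp), and 3 fibroblast and endothelial markers fell. Under that scaling 1 progenitor marker rose (Pax6) and 1 fell (Nes), and 1 microglia marker rose (Cx3cr1), as it alone of the 5 did after quantile normalization. The part of any of these lists in the change of the MAP3 kinases was not tested. In a bulk sample, fewer cells of a type and less RNA per cell cannot be told apart.

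**Figure D1:**
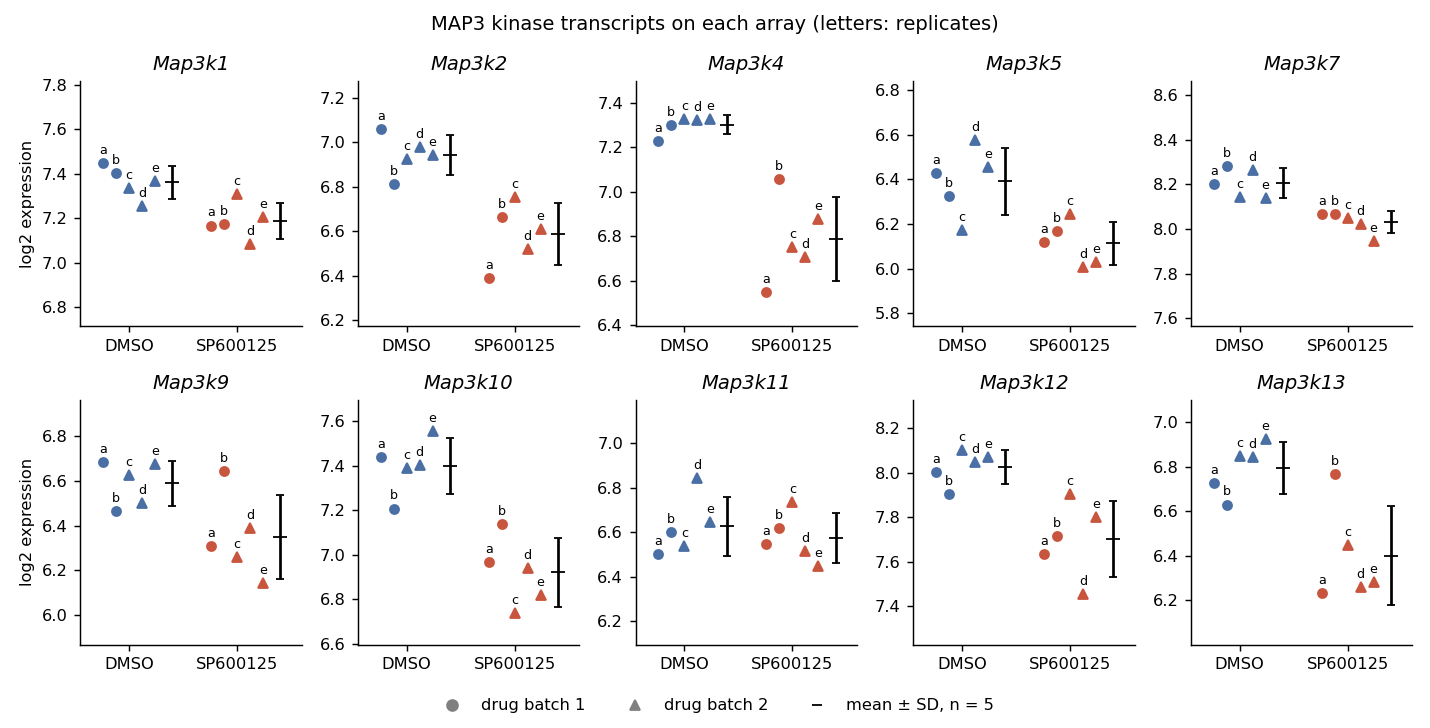
Log2 expression of each MAP3 kinase gene on the 5 DMSO and 5 SP600125 arrays; circles are drug batch 1, triangles drug batch 2, letters replicates, and bars the mean ± SD (n = 5). Every panel spans the same range of 1.1 log2 units. The groups do not overlap for Map3k2, Map3k4, Map3k7 and Map3k10, and SP600125 replicate b of Map3k9 and Map3k13 sits among the DMSO arrays.

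Map3k4, which encodes the MEK kinase MEKK4, had the largest change of the group. Its log2 level was 7.23, 7.30, 7.33, 7.32 and 7.33 on DMSO replicates a to e, and 6.55, 7.06, 6.75, 6.71 and 6.88 on SP600125 replicates a to e. Every SP600125 array lay below every DMSO array, and the DMSO arrays were close together (SD 0.04) while the SP600125 arrays were spread (SD 0.19). Map3k4 fell by 0.51 (SE 0.08, limma adjusted p = 0.000478), that is to 70.1% of the DMSO level. It kept its call without each array in turn (−0.60 to −0.44) and after cyclic loess (−0.37, limma adjusted p = 0.00319).

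Map3k2, which encodes MEKK2, an activator of MKK7 and of the ERK5 branch, also separated the groups. It read 7.06, 6.81, 6.92, 6.98 and 6.94 after DMSO and 6.39, 6.66, 6.75, 6.52 and 6.61 after SP600125. The lowest DMSO array (b) stood only 0.06 above the highest SP600125 array (c). The transcript fell by 0.35 (SE 0.07, limma adjusted p = 0.00212).

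The third MEK kinase, Map3k1 (MEKK1), which is also a ubiquitin ligase, changed less. On DMSO arrays a to e its level was 7.45, 7.40, 7.33, 7.25 and 7.37, and on SP600125 arrays 7.17, 7.17, 7.31, 7.08 and 7.21. SP600125 replicate c lay above DMSO replicate d, and the other SP600125 arrays lay below all DMSO arrays. The fall of 0.17 (SE 0.06, limma adjusted p = 0.0353) was near the threshold. It passed without DMSO replicate d (−0.20), SP600125 replicate c (−0.21) or SP600125 replicate e (−0.18), and it did not pass without any of the other 7 arrays (limma adjusted p up to 0.0900). Those were DMSO replicates a (−0.15), b (−0.17), c (−0.18) and e (−0.17) and SP600125 replicates a (−0.16), b (−0.16) and d (−0.15). After cyclic loess the change was close to 0 (−0.01, limma adjusted p = 0.941).

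Among the mixed lineage kinases, Map3k10 (MLK2), a kinase that binds the motor-linked JNK scaffolds, had the largest change. Its arrays read 7.44, 7.21, 7.39, 7.40 and 7.56 after DMSO and 6.97, 7.14, 6.74, 6.94 and 6.82 after SP600125. The groups did not overlap, and in both the b array lay closest to the other group. The transcript fell by 0.48 (SE 0.08, limma adjusted p = 0.000706), to 71.8% of the DMSO level, and by 0.32 after cyclic loess (limma adjusted p = 0.00813).

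Map3k9 (MLK1) showed a smaller fall that rested on 4 of the 5 treated arrays. It read 6.68, 6.46, 6.63, 6.50 and 6.67 after DMSO and 6.31, 6.65, 6.26, 6.39 and 6.14 after SP600125. SP600125 replicate b lay within the DMSO range and the other 4 lay below it. The gene fell by 0.24 (SE 0.09, limma adjusted p = 0.0310). It did not pass without DMSO replicate a (−0.23), c (−0.22) or e (−0.21), or without SP600125 replicate a (−0.21), c (−0.23) or e (−0.20), with limma adjusted p up to 0.0841, nor after quantile normalization (−0.21, limma adjusted p = 0.0795) or cyclic loess (−0.18, limma adjusted p = 0.119).

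Map3k11 (MLK3), the member of this family known from many tissues, was the gene that did not pass. DMSO arrays a to e read 6.50, 6.60, 6.54, 6.84 and 6.65 and SP600125 arrays 6.55, 6.62, 6.74, 6.52 and 6.45. The groups overlapped over most of their range, and only SP600125 replicate e lay below all DMSO arrays. The change was −0.05 (SE 0.08, limma adjusted p = 0.593), and it was 0.04 after cyclic loess and −0.003 after quantile normalization. A p of this size does not show that the level stayed the same.

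The dual leucine zipper kinases both fell. Map3k12 (DLK) read 8.01, 7.90, 8.10, 8.05 and 8.07 after DMSO and 7.64, 7.71, 7.91, 7.45 and 7.80 after SP600125. SP600125 replicate c (7.906) and DMSO replicate b (7.905) touched, and the remaining arrays of the groups were apart. Map3k12 fell by 0.32 (SE 0.08, limma adjusted p = 0.00488), but the change was −0.13 after cyclic loess (limma adjusted p = 0.167) and −0.20 after quantile normalization (limma adjusted p = 0.0548). A second probe set of Map3k12 was dim, at 4.55 ± 0.04 after DMSO and 4.47 ± 0.09 after SP600125 (mean ± SD, n = 5). With both probe sets averaged the change was −0.20 and still passed (limma adjusted p = 0.0198).

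Map3k13 (LZK), the closest relative of DLK, had the widest spread after treatment (SD 0.22). It read 6.73, 6.63, 6.85, 6.84 and 6.93 after DMSO and 6.23, 6.77, 6.45, 6.26 and 6.28 after SP600125. SP600125 replicate b stood inside the DMSO range, while the other 4 treated arrays were below all DMSO arrays. The gene fell by 0.40 (SE 0.10, limma adjusted p = 0.00562), and by 0.31 after cyclic loess (limma adjusted p = 0.0206).

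Map3k5 (ASK1), which thioredoxin holds inactive until it is oxidised, fell by 0.28 (SE 0.08, limma adjusted p = 0.0115). Its level was 6.43, 6.33, 6.17, 6.58 and 6.46 on DMSO arrays a to e and 6.12, 6.17, 6.24, 6.01 and 6.03 on SP600125 arrays a to e. The overlap came from DMSO replicate c, which lay below SP600125 replicate c. Of the 10, its change moved least under these 2 rescalings, at −0.28 after quantile normalization (limma adjusted p = 0.0162) and −0.25 after cyclic loess (limma adjusted p = 0.0329).

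Map3k7 (TAK1), the kinase that also feeds NF-kB through its partners TAB1, TAB2 and TAB3, lost its difference under both rescalings. DMSO arrays read 8.20, 8.28, 8.14, 8.26 and 8.14 and SP600125 arrays 8.07, 8.07, 8.05, 8.02 and 7.95. Spread was small in both groups (SD 0.07 and 0.05), and they did not overlap. As deposited, Map3k7 fell by 0.18 (SE 0.06, limma adjusted p = 0.0209), though not without DMSO replicate d (−0.15, limma adjusted p = 0.0545) or SP600125 replicate e (−0.16, limma adjusted p = 0.0532). After quantile normalization the change was −0.03 (limma adjusted p = 0.720) and after cyclic loess it was 0.01 (limma adjusted p = 0.900).

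**Figure D2:**
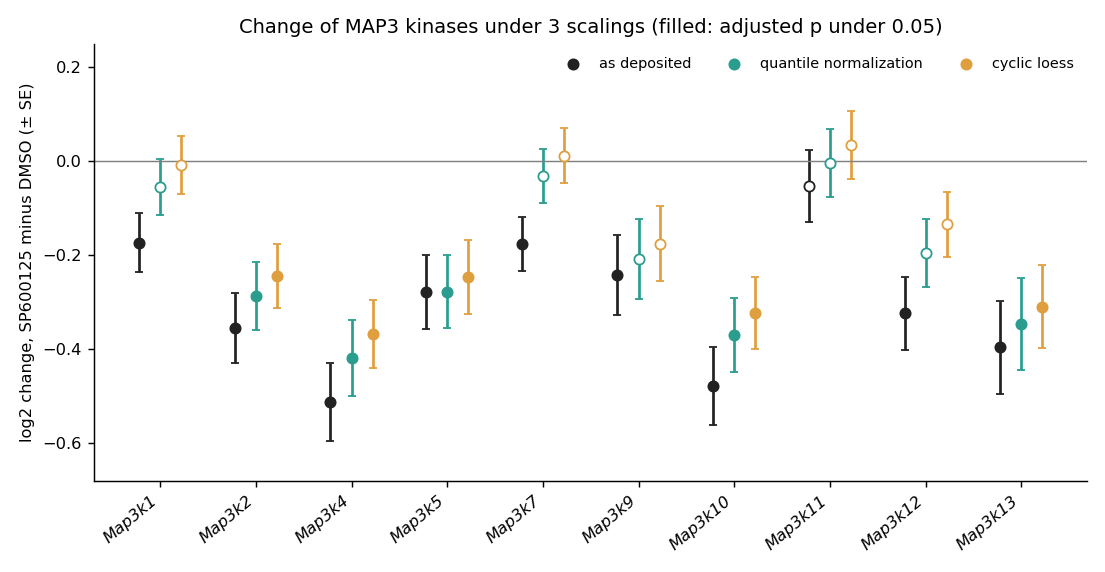
Log2 change (SP600125 minus DMSO, ± SE, n = 5 per group) of the 10 MAP3 kinases with the values as deposited, after quantile normalization and after cyclic loess; filled points have an adjusted p under 0.05. Map3k2, Map3k4, Map3k5, Map3k10 and Map3k13 are filled under all 3 scalings, while Map3k1 and Map3k7 shrink to near 0 and Map3k7 and Map3k11 cross 0 after cyclic loess.

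In total, 4 of the 10 genes had all SP600125 arrays below all DMSO arrays (Map3k2, Map3k4, Map3k7 and Map3k10), against 16.4% of all genes. Within drug batch 1 this held for 7 (30.1% of all genes), within drug batch 2 for 7 (35.1%), and within both for 5 (21.1%), the fifth being Map3k12. These shares include dim genes, while all 10 members lay above the olfactory receptor percentile, where 50.4% of genes fell. Of the 50 readings after SP600125, 48 lay below the DMSO mean of their gene, the exceptions being Map3k9 on replicate b and Map3k11 on replicate c. These readings share the same SP600125 arrays, so they are not independent, and no share over all genes stands beside this count.

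The promoters of 4 of these genes are shown. They are Map3k4 and Map3k10, with the largest falls, Map3k11, which did not pass, and Map3k9, picked as the only member searched with CCAAT boxes. Each is the 250 bases upstream of a RefSeq gene start in GRCm38.p6. The positions are chr17:12318661-12318910 (minus strand) for Map3k4, chr7:27674582-27674831 (minus) for Map3k10, chr12:81781171-81781420 (minus) for Map3k9 and chr19:5688881-5689130 (plus) for Map3k11. Bases are 5′ to 3′ towards the gene, and capitals mark matches on either strand to the CCAAT box of NF-Y (CCAAT), the AP-1 site (TGANTCA) or the core of the cAMP response element (TGACG).
Map3k4: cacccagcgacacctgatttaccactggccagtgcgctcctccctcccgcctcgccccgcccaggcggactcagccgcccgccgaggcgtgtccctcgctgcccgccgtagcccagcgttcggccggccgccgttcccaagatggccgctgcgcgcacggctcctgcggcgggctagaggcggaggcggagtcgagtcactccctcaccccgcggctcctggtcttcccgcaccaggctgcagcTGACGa
Map3k10: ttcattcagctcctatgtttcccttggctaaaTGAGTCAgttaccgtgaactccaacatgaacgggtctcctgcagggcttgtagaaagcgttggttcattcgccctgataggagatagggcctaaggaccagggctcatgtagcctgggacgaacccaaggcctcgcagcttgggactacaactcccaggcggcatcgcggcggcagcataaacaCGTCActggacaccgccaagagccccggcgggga
Map3k9: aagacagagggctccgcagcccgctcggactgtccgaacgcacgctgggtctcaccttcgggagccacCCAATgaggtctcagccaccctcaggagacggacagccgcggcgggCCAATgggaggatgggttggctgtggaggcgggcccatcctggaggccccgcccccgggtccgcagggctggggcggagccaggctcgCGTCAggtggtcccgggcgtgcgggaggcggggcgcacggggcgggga
Map3k11: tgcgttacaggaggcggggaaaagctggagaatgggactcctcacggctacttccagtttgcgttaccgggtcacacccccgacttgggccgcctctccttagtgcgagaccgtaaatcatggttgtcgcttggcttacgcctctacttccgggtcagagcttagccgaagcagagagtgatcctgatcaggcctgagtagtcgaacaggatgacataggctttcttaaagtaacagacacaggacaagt

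Of the 10 genes, 9 were searched, with 10 windows matched by gene identifier. Map3k2 was not searched, since windows of members on its chromosome (18) were left out. CCAAT was found in 1 of these genes, Map3k9, in which 177 and 131 bases lie between the matches and the start, and in 33.8% of all 32851 windows of the table. TGANTCA was found only in Map3k10 (6.75% of all windows). TGACG was found in Map3k4, Map3k7, Map3k9 and Map3k10 (17.8% of all windows), and the full TGACGTCA, which contains it, in none of the 9 (1.55%). The GC box GGGCGG was found in 6 of the 9 (32.7% of all windows). The windows ran from 49.2% GC for Map3k13 to 85.2% for Map3k1, and 9 of 10 lay above the median of all windows (52.4%). A match is a description of these letters and not a bound site.

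Related members were also compared directly, since a pass in 1 gene and not in another does not test their difference. For 7 pairs within a family, the difference of their log2 levels on each array was set against treatment in an exact two-sided permutation test within drug batch. The 120 arrangements allow no p below 0.0167, and adjusted over 7 pairs a pair at that p could pass only together with several others near it. Map3k10 with Map3k11 and Map3k9 with Map3k10, both at that p, came only to an adjusted 0.0583. None of the 7 differences passed after adjustment. The change of Map3k10 minus that of Map3k11 was −0.43 (SE 0.12, lower in 5 of 5 SP600125 arrays, exact p = 0.0167, adjusted 0.0583), and for Map3k9 minus Map3k10 it was 0.24 (SE 0.05, 5 of 5 arrays, exact p = 0.0167, adjusted 0.0583). For Map3k1 minus Map3k4 it was 0.34 (SE 0.11, 4 of 5 arrays, exact p = 0.0333, adjusted 0.0583), and for Map3k1 minus Map3k2 it was 0.18 (SE 0.06, 5 of 5 arrays, exact p = 0.0333, adjusted 0.0583). The difference was −0.19 (SE 0.12, exact p = 0.183) for Map3k9 minus Map3k11 and 0.16 (SE 0.09, exact p = 0.133) for Map3k2 minus Map3k4. For Map3k12 minus Map3k13 it was 0.07 (SE 0.11, exact p = 0.617), so at this number of arrays DLK and LZK were not told apart.

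**Figure D3:**
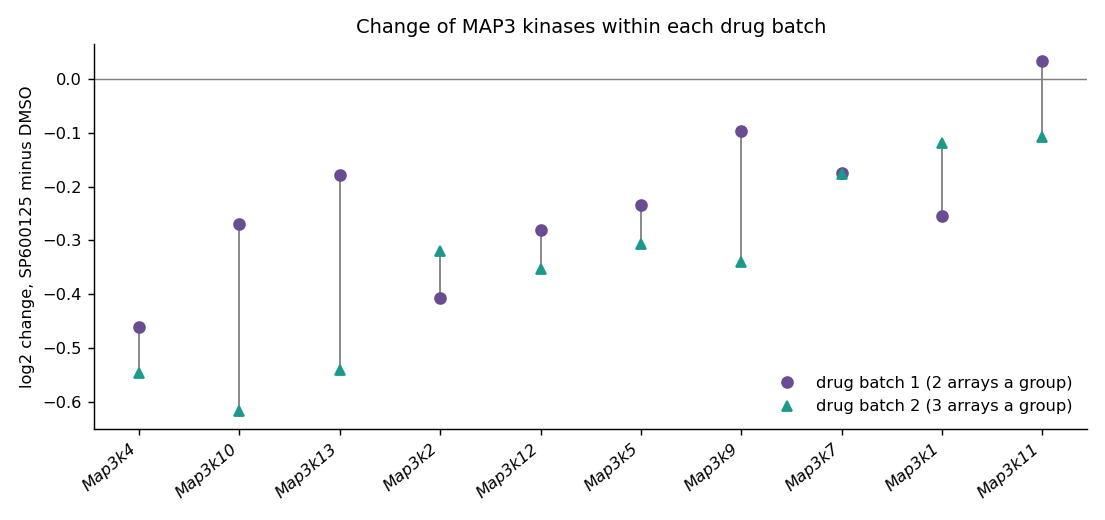
Log2 change (SP600125 minus DMSO) of each MAP3 kinase within drug batch 1 (2 arrays a group, circles) and drug batch 2 (3 arrays a group, triangles), ordered by the change over both. Map3k10, Map3k13 and Map3k9 lie lower in batch 2, Map3k7 coincides, and Map3k1 and Map3k2 lie lower in batch 1.

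Within each drug batch the sizes of change were as follows. The change of Map3k10 was −0.27 in batch 1 and −0.62 in batch 2, that of Map3k13 −0.18 and −0.54, and that of Map3k9 −0.10 and −0.34. Map3k4 (−0.46 and −0.55), Map3k12 (−0.28 and −0.35) and Map3k5 (−0.23 and −0.31) were closer, and Map3k7 was the same in both (−0.18). Map3k1 (−0.25 and −0.12) and Map3k2 (−0.41 and −0.32) were lower in batch 1, and Map3k11 was 0.03 and −0.11. The median of the 10 was −0.24 in batch 1 and −0.33 in batch 2, against −0.01 and −0.05 over all genes. No difference between batches passed for these genes. In limma the interaction of treatment and batch called 0 of 19938 genes (0.00%), with 1852 at an unadjusted p under 0.05. Among these 1852 was 1 member, Map3k10 (limma unadjusted p = 0.0327), which also had the smallest adjusted p of a member, 0.520. Batch 1 has only 2 arrays a group, so this does not show that the response was the same. DMSO arrays carry the batch labels too, so a lot of SP600125 cannot be told apart from other differences between the batches. Fitted alone, batch 1 called 0 members (0.00502% of all genes fell, that is 1 gene), and in batch 2 alone 6 fell (27.3% of all genes): Map3k2, Map3k4, Map3k9, Map3k10, Map3k12 and Map3k13. Between the batches, regardless of treatment, none of the 10 passed the test (0.722% of all genes did, smallest adjusted p of a member 0.695).

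Replicate b stood apart in both groups, and it is 1 of the 2 replicates of batch 1. The median deviation of the 12 neuron markers from their DMSO means was −0.28 on DMSO replicate b, −0.05 on SP600125 replicate b and −0.71 to −0.54 on the other SP600125 arrays. On SP600125 replicate b, Map3k9 (0.05), Map3k13 (−0.03) and Map3k11 (−0.01) were at their DMSO mean, but the other 7 lay 0.14 to 0.31 below theirs, Map3k12 the lowest (−0.31). The median deviation of all 10 was −0.21 on that array, against −0.34, −0.17, −0.40 and −0.35 on SP600125 replicates a, c, d and e. The part of these arrays in the batch 1 values was not tested beyond leaving them out. Without both b arrays 8 of the 10 fell (31.6% of all genes), with −0.58 for Map3k10, −0.53 for Map3k13 and −0.35 for Map3k9, and Map3k1 did not pass (−0.16, limma adjusted p = 0.0764).

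**Figure D4:**
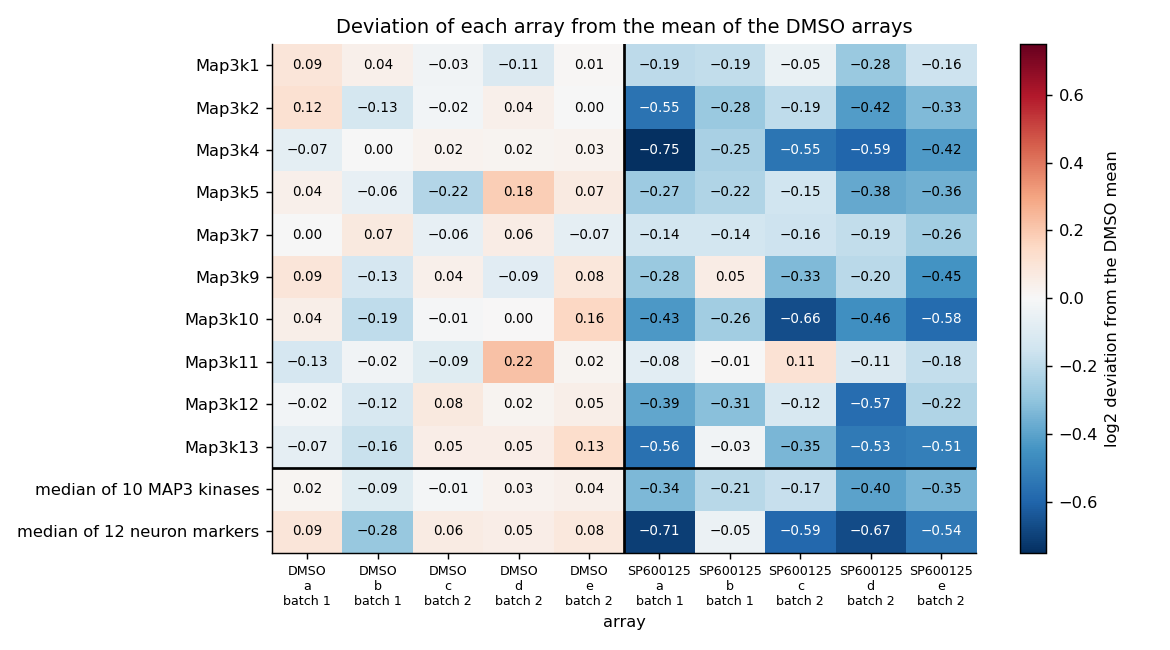
Log2 deviation of each array from the mean of the 5 DMSO arrays, for the 10 MAP3 kinases, for their median and for the median of 12 neuron markers; columns are arrays and colour runs from −0.75 (blue) to 0.75 (red). SP600125 replicate b is at −0.05 for the neuron markers and at −0.21 for the median of the MAP3 kinases.

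The genes whose pattern over the 10 arrays was most like that of the 3 most changed members were looked up among all genes, as a description, since arrays of the same 2 groups share the treatment difference. Map3k4 lay closest to Atxn10 (Pearson r = 0.995), Prkca (0.991), which encodes protein kinase C alpha, and Prkcq (0.984), protein kinase C theta. Map3k10 lay closest to Galnt13 (0.977), Pnmal1 (0.974) and Camk2b (0.972), a calmodulin-dependent kinase subunit of neurons. Map3k13 lay closest to Rgmb (0.992), Pde4dip (0.988) and Tmx4 (0.987). Among the 10 members, Map3k4 and Map3k13 were each other's nearest (r = 0.908), and Map3k10 lay nearest to Map3k9 (0.880).

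MAP3 kinases outside the 10 were measured with 13 genes. Of these 2 rose, a share near the 17.0% of all genes, 1 fell, against 29.9% of all genes, and 10 missed the threshold. The median change of the list was 0.06. Taok2, which encodes a TAO kinase of neurons, fell by 0.67 (SE 0.07) and by 0.48 after cyclic loess. Map3k6, a relative of ASK1, rose by 0.34 (SE 0.10) and Map3k8 (TPL2), a kinase of the ERK branch, by 0.26 (SE 0.09). Neither passed after cyclic loess, and 5 of the 13, Map3k6 among them, were at or below the olfactory receptor percentile. The changes of these 5 dim genes all lay above 0, and the list median includes them. The difference between the 2 lists was not tested.

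Of 12 upstream kinases and GTPases that act above the MAP3 kinases, 4 fell and 2 rose (list median −0.10). Both counts are near the shares over all genes (29.9% fell and 17.0% rose), and after cyclic loess 3 fell and 1 rose. The PAK kinase Pak3 fell by 0.49 (SE 0.09), Mink1 by 0.42 (SE 0.08) and Tnik by 0.37 (SE 0.07), both MAP4 kinases, and Rac3, a neuronal Rac, by 0.34 (SE 0.10). Map4k1 (0.27, SE 0.08) and Rac2 (0.27, SE 0.09), both known from blood cells, rose, and after cyclic loess Rac3 and Rac2 did not pass. Of 23 adaptors, partners and regulators, 15 fell, none rose and 8 missed the threshold (list median −0.24), against 29.9% of all genes that fell. Among these 23 and the 12 upstream genes only Sh3rf2 lay at or below the olfactory receptor percentile. Of the genes above that percentile, fitted alone, 50.4% fell and 8.57% rose. After cyclic loess 5 of the 23 fell, a share near the 17.7% of all genes. Hsp90aa1, a chaperone of kinases, fell by 0.43 (SE 0.06), Mycbp2, the ubiquitin ligase that limits DLK, by 0.43 (SE 0.08), and Sh3rf1 (POSH), a scaffold that binds Rac and mixed lineage kinases, by 0.37 (SE 0.08).

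Below the MAP3 kinases, 7 of 10 kinases fell and Mapk12 (p38 gamma) rose by 0.26 (SE 0.06), with a list median of −0.25. Of all genes 29.9% fell, and after cyclic loess 3 of the 10 fell, against 17.7% of all genes. The MAP2 kinase Map2k4 fell by 0.36 (SE 0.08) and had a change of −0.18 after cyclic loess (limma adjusted p = 0.0575), while Map2k7 had no probe set with its symbol alone. The JNK genes Mapk8, Mapk9 and Mapk10 had changes of −0.34, −0.45 and −0.56, within or just past the range of the 10 MAP3 kinases. After cyclic loess Mapk8 did not pass (−0.15, limma adjusted p = 0.0851), while Mapk9 (−0.27) and Mapk10 (−0.39) did. Of 6 scaffolds, 4 fell (list median −0.32). They were Mapk8ip2 (−0.50, SE 0.10), Sh3rf1, which is in both lists, Mapk8ip1 (−0.33, SE 0.07) and Mapk8ip3 (−0.30, SE 0.07). After cyclic loess, of the 6, only Mapk8ip2 fell (−0.32), a share near that of all genes, and Sh3rf3 rose (0.21). Of 11 JNK substrates, 7 fell (list median −0.35, 5 falls after cyclic loess), led by Mapt (tau, −0.58, SE 0.11), Jun (−0.56, SE 0.06) and Map1b (−0.55, SE 0.11). Mapt and Map1b are also neuronal genes. Of the kinases, scaffolds and JNK substrates listed here, only Junb lay at or below the olfactory receptor percentile. Of the genes above that percentile, fitted alone, 50.4% fell.

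**Figure D5:**
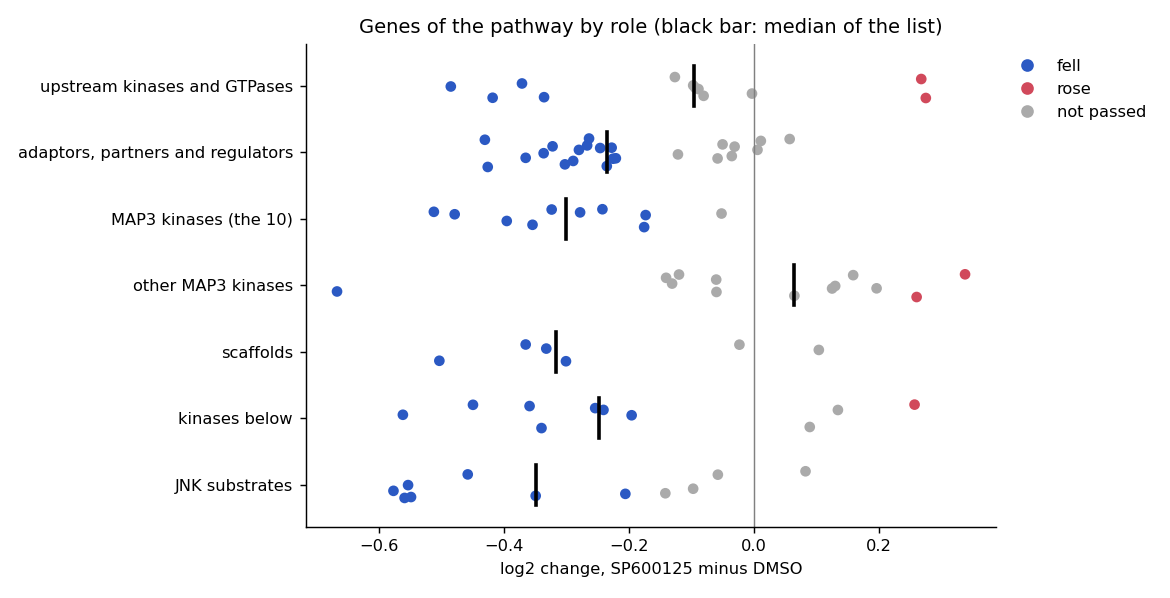
Log2 change (SP600125 minus DMSO, values as deposited) of every measured gene in 7 roles of the pathway; each point is a gene, coloured by whether it fell, rose or did not pass at an adjusted p under 0.05, and black bars are list medians, with height within a row only to separate points. In the row of the 10 MAP3 kinases 9 points fell (5 after cyclic loess, when Map3k7 and Map3k11 lay above 0) around a median of −0.30. The median of the 13 other MAP3 kinases is 0.06, with 5 of them at or below the olfactory receptor percentile, all changed by more than 0.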

How the data were processed

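Total RNA of 10 samples was measured on 1 array each, and arrays carry no read depth, so their number limits the precision. The deposited values were log2 expression values per probe set, which the authors made using oligo (version 1.14.0), per the submitters' processing notes. The method of background correction, normalization and summarization is not given in the sources used here, and the log2 scale was taken from the values. Of 35556 probe sets, 21789 carried 1 gene symbol in the platform annotation, 1621 several and 12146 none; the highest mean per gene gave 19938 genes. No 2 arrays were duplicates, since the closest pair differed by a mean absolute log2 difference of 0.11.

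Values were used as deposited in limma 3.58.1 (R 4.3.3; lmFit, eBayes, two-sided) with treatment and drug batch as terms, 7 residual degrees of freedom and Benjamini-Hochberg adjusted p under 0.05. The fit and the pair test were tested on simulated data. The 10 members, the pathway and marker lists, the tests and the alternatives (scaling, batch term, replicate block, array weights, probe set choice, dim genes, left-out arrays) were chosen with earlier results of these data known. Named were all members, per list up to 3 genes of largest change among those that passed, the kinases below and Jun, and the 3 closest genes of the 3 most changed members. Aqp4, Gja1, Gfap, Mbp, Pax6, Nes, Cx3cr1, Rac3, Map4k1, Rac2, Mapk12, Mapk8ip3 and Sh3rf3 were named after their values were seen. So were Col1a1, Slc1a3, Tubb3, Elavl4, Gap43, Pecam1, S100b, Sh3rf2 and Junb. Promoters came from RefSeq (GRCm38.p6).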

Additional observations from a re-analysis of the deposited data

Results flagged for a closer look

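The level of Map3k4 on DMSO replicate a (7.23) lay apart from the other 4 DMSO arrays, the nearest of which was at 7.30. Its gap was 0.714 of the range of the group, and the whole range was small. Of 20 groups of 5 arrays examined for the 10 genes, this was the 1 with such a gap, and chance gives about 1 in 20. Without this array the fall of Map3k4 was 0.53.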

How the results depend on the processing

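Under quantile normalization 5991 genes and 5 MAP3 kinases were called, under cyclic loess 5419 genes, 5 MAP3 kinases and 21 of the 74 genes of the pathway lists (42 as deposited), and in drug batch 1 alone 1 gene, 0 MAP3 kinases and 0 list genes, the last with 2 arrays per group. Map3k7 turned to 0.012 (adjusted p = 0.900) after cyclic loess. The cause was not tested. Calls split into 3389 rises and 5962 falls as deposited, 1497 and 4494 after quantile normalization, 1500 and 8602 after median centring, which moved the median of all genes from −0.03 to −0.13, and 4455 and 5052 after centring on named genes, an alternative chosen after seeing the data, with 6 MAP3 kinases called (25.3% of all genes fell). Array weights, an intensity trend, no batch term, averaged probe sets, median centring and bright genes only each left 9 called (28.0% of all genes fell without the batch term, 29.7% with averaged probe sets, 30.9% with the trend, 33.0% with weights and 43.1% after median centring), and leaving out 1 array left 7 or 8 (25.6% to 31.9%). With the replicate letter as a block (replicate block), 7 MAP3 kinases and 8252 genes were called (26.6% of all genes fell), without Map3k1 and Map3k9. The letters were not taken as pairs, since deviations of same-letter arrays correlated from −0.21 to 0.10 and 1 of 5 DMSO arrays correlated best with its own letter. No difference between related kinases and no interaction with drug batch passed under quantile normalization, under cyclic loess or with any 1 array left out. For the kinase pairs this says little, since the permutation test could pass only if several pairs came near its smallest p.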

Other observations

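Map3k21, a further mixed lineage kinase gene, was in none of the lists and was named after its values were seen. Its probe set was dim, at 4.23 after DMSO and 4.20 after SP600125, under the olfactory receptor percentile of 5.43, with a change of −0.03 (SE 0.07, limma adjusted p = 0.742).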
